A study of Mus musculus with 11 samples.

Results

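Solitary cells with an apical tuft of microvilli stand among the olfactory sensory neurons of the main olfactory epithelium (MOE), and 10 of their marker genes were followed here over 11 RNA-seq libraries. The 10 genes were chosen by symbol, not by their values, though with earlier results known, from the 24421 entries of the deposited count table. They were 7 genes of Trpm5-positive microvillar tuft cells (Pou2f3, Gfi1b, Plcb2, Trpm5, Avil, Il25 and Chat) and 3 genes of Foxi1-positive ionocytes (Foxi1, Ascl3 and Cftr). All 10 had a row in the table, and 7 passed the filter on low counts (Pou2f3, Plcb2, Trpm5, Avil, Foxi1, Ascl3 and Cftr).

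Tuft cells are chemosensory epithelial cells that use the taste transduction machinery. A receptor acts through the phospholipase PLCB2 and calcium release to open the cation channel TRPM5, and the cells then signal with acetylcholine, interleukin 25 and eicosanoids to nerves, immune cells and neighbouring epithelium. Their fate depends on the POU-domain factor POU2F3. Ionocytes are rare epithelial cells specified by the forkhead factor FOXI1, which carry the proton pump V-ATPase and the chloride channel CFTR and move ions across airway and other epithelia.

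The study compared mice with a knockout of the olfactory Taar gene cluster, from Taar2 to Taar9, a family of receptors used by a small share of sensory neurons. Whole MOE was taken from 3 wild-type, 4 heterozygous and 4 homozygous knockout samples, all labelled as strain C57BL/6 and age P1-P2, and the labels name no Cre driver, transgene or treatment. The reporting section of the study gives a later age and a mixed 129 background for this line, and the difference could not be settled. The labels do not say whether each library came from a separate animal, so that the p-values measure the spread between these libraries, which may be technical in part. The comparisons below ask whether genes of these non-neuronal cells differed when the Taar genes were lost. In bulk tissue, fewer cells of a type and less RNA per cell cannot be told apart.

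Total counts per library ran from 9239866 to 14632525. The 14 olfactory Taar genes summed to 87 to 119 counts in wild-type, 31 to 96 in heterozygous and 1 to 3 in homozygous libraries, which followed the labels. The 4 sustentacular markers summed to 980 to 1532 CPM (counts scaled to a common TMM-adjusted library total) in wild-type, 964 to 1278 in heterozygous and 875 to 1419 in homozygous libraries. Of these 4, 3 were lower in homozygous and 2 in heterozygous versus wild type, and 0 had an unadjusted p-value under 0.05 (edgeR). The 6 markers of olfactory sensory neurons summed to 1065 to 1919 CPM in wild-type, 1120 to 1576 in heterozygous and 1031 to 1331 in homozygous libraries. All 6 neuron markers were lower in each comparison, with a median log2 fold change of -0.29 in homozygous versus wild type, -0.16 in heterozygous versus wild type and -0.12 in homozygous versus heterozygous libraries, and 0 of 6 had an unadjusted p-value under 0.05 (edgeR). Libraries stood apart in 3 ways, of which the muscle level went in part with genotype. The 8 skeletal muscle markers summed to 7.13 to 56.0 CPM in wild-type, 16.5 to 1562 in heterozygous and 19.5 to 733 in homozygous libraries, and the 5 libraries above 100 CPM were all heterozygous or homozygous. The median log2 fold change of these markers versus wild type was 4.22 in heterozygous libraries (7 of 8 with an unadjusted p-value under 0.05, edgeR) and 3.44 in homozygous libraries (4 of 8). The ribosomal precursor Rn45s held 25.8% of the counts of homozygous replicate 2 and at most 0.786% elsewhere. On the first principal component of all tested genes except the 7 members, which carried 41.6% of the variance, the libraries fell into 2 sets. Set 1 consisted of 6 libraries, namely replicates 1 and 2 of wild type and of homozygous mice and replicates 3 and 4 of the heterozygotes. Set 2 consisted of wild-type replicate 3, heterozygous replicates 1 and 2 and homozygous replicates 3 and 4. The imprinted RNA Meg3 lay between 218 and 517 CPM in set 1 and between 1212 and 1528 CPM in set 2.

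Per length, the ionocyte factors were the highest of the 10 genes and the cholinergic enzyme the lowest. Levels per length are given as CPM per kilobase of merged exons, as mean ± SD over the 11 libraries. Ascl3 led with 27.6 ± 5.34 CPM per kilobase, above 88.0% of the tested genes with a known length. Foxi1 followed with 10.3 ± 5.35. The gap between them held in all 11 libraries. In CPM not scaled to length their order was reversed, with means of 24.3 for Foxi1 and 19.3 for Ascl3. The merged exons used were 2357 bases long for Foxi1 and 700 for Ascl3. Cftr (1.94 ± 0.467), Trpm5 (1.92 ± 0.492) and Pou2f3 (1.77 ± 0.322) formed a middle group whose neighbours in the order did not differ beyond their SDs. Avil stood at 0.820 ± 0.193. Il25 (0.444 ± 0.233) and Plcb2 (0.391 ± 0.0904) were close to each other, and Gfi1b (0.199 ± 0.125) and Chat (0.0203 ± 0.0162) came last. The neighbours Avil and Il25, Il25 and Plcb2, and Plcb2 and Gfi1b also did not differ beyond their SDs, whereas Pou2f3 and Avil, and Gfi1b and Chat, did.

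**Figure D1:**
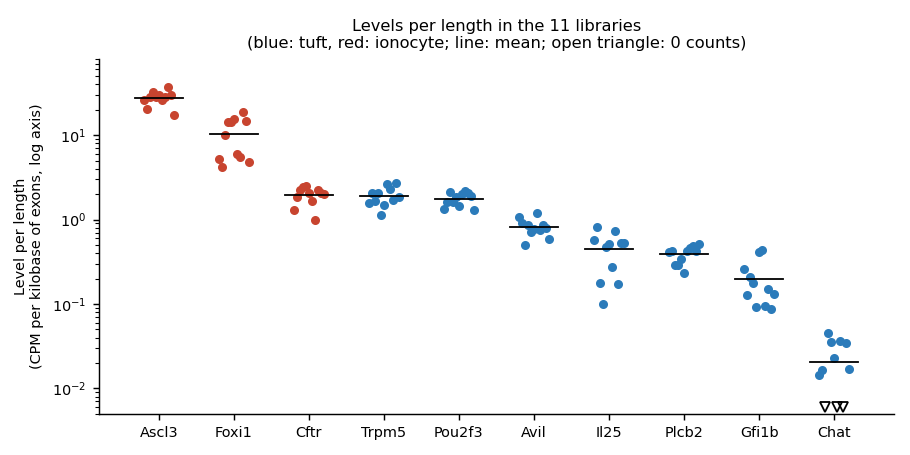
Level per length of the 10 genes in each of the 11 libraries, on a logarithmic axis in CPM per kilobase of merged exons, with the mean of each gene as a line, tuft cell genes in blue, ionocyte genes in red and open triangles for libraries with 0 counts. Ascl3 has a mean of 27.6 and Chat of 0.0203 CPM per kilobase, and the points of Cftr, Trpm5 and Pou2f3 lie at the same height.

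Among the tuft cell transcription factors, Pou2f3 (chr9:43123939-43210369, mm10, minus strand), which these cells need to form, was steady. It stood at 6.30, 5.93 and 4.04 CPM in wild-type replicates 1 to 3, at 4.08, 5.02, 6.63 and 5.03 CPM in heterozygous replicates 1 to 4, and at 5.64, 4.47, 6.16 and 6.80 CPM in homozygous replicates 1 to 4. The 3 genotypes overlapped, and the highest library was 1.68-fold above the lowest. The log2 fold change was 0.093 (SE 0.25, 95% confidence interval -0.45 to 0.63) in homozygous and -0.065 (SE 0.25, interval -0.61 to 0.48) in heterozygous versus wild-type libraries. Gfi1b (chr2:28609450-28621982), a zinc-finger repressor found in tuft and blood lineages, had 3, 2 and 3 counts in wild type, 7, 3, 4 and 3 in heterozygous and 2, 7, 11 and 2 in homozygous libraries. The 2 homozygous libraries with 7 and 11 counts lay above all wild-type libraries, and the other 2 lay within their range. Gfi1b did not pass the filter. In a fit without a filter its unadjusted p-value in homozygous versus wild-type libraries was 0.146 (edgeR's quasi-likelihood test), the lowest of the 10 genes.

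Of the 2 transduction members, Trpm5 was the higher per length. Trpm5 (chr7:143069153-143094642), the calcium-activated cation channel at the end of the cascade, had 10.8, 17.5 and 11.9 CPM in wild type, 9.93, 13.2, 10.5 and 13.1 CPM in heterozygous and 7.32, 9.49, 17.0 and 14.5 CPM in homozygous libraries. The homozygous libraries reached from below the wild-type range to close to its top. The log2 fold change of homozygous versus wild-type libraries was -0.15 (SE 0.29, interval -0.77 to 0.48) and that of heterozygous versus wild type -0.20 (SE 0.29, interval -0.83 to 0.42). Plcb2 (chr2:118707517-118728438), which encodes the phospholipase upstream of the channel, had 3.24, 2.81 and 3.39 CPM in wild type, 2.72, 2.82, 1.90 and 1.93 CPM in heterozygous and 2.27, 1.53, 2.79 and 3.01 CPM in homozygous libraries. The overlap was slight, since 1 heterozygous library lay just above the lowest wild-type value and 1 homozygous library exceeded it. Plcb2 had log2 fold changes of -0.38 (SE 0.29, interval -1.005 to 0.24) in homozygous and -0.42 (SE 0.29, interval -1.04 to 0.21) in heterozygous versus wild-type libraries. The exact permutation test gave p = 0.114 for each, the lowest of all members, and the smallest p-value that 3 versus 4 libraries allow is 0.0571. In edgeR's quasi-likelihood test the unadjusted p-values of Plcb2 were 0.208 and 0.171. With library set as covariate, an alternative added after the data were seen, heterozygous versus wild type gave -0.52 (SE 0.23, unadjusted p = 0.0417 in the edgeR fit, adjusted 0.999).

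Avil (chr10:127000709-127020994), an actin-bundling protein of microvilli, had 2.97, 2.73 and 2.02 CPM in wild type, 3.60, 3.06, 1.71 and 2.89 CPM in heterozygous and 2.44, 2.62, 4.03 and 2.58 CPM in homozygous libraries. Homozygous replicate 3 stood above the other homozygous libraries, which lay between 2.44 and 2.62 CPM. The log2 fold change of Avil was 0.19 (SE 0.31, interval -0.49 to 0.87) in homozygous versus wild-type libraries and -0.012 without homozygous replicate 3.

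Of the signals that tuft cells release, the 2 covered by members, Il25 and Chat, were near the limit of detection. Il25 (chr14:54932695-54935837), the cytokine by which tuft cells call on type 2 immunity, had 2, 7 and 7 counts in wild type, 9, 11, 2 and 1 in heterozygous and 6, 5, 4 and 9 in homozygous libraries. Every library had at least 1 count of Il25, and the genotypes overlapped. Chat (chr14:32408203-32465989), choline acetyltransferase, had 0, 2 and 1 counts in wild type, 1, 1, 0 and 2 in heterozygous and 2, 1, 0 and 2 in homozygous libraries. All 11 libraries were thus below 3 counts, the upper limit that a count of 0 allows, which came to 0.204 to 0.327 CPM per library and covers counting error only. A difference in Chat between genotypes was not detectable at this depth. Slc18a3, the vesicular acetylcholine transporter, lies within Chat on the same strand, and reads of Trpm5 and Avil could be shared with Tssc4 and Tsfm, which overlap them on the opposite strand, as the strand setting of the counting was not stated.

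The 3 ionocyte members summed to 38.4 to 87.7 CPM per library and the 7 tuft cell genes to 18.5 to 31.1 CPM, sums that are not scaled to gene length. Foxi1 (chr11:34204338-34208089, minus strand), the factor that specifies ionocytes, had 44.5, 34.2 and 11.2 CPM in wild type, 12.3, 9.96, 23.8 and 34.1 CPM in heterozygous and 33.4, 36.9, 14.2 and 13.1 CPM in homozygous libraries. Each genotype held both low libraries (9.96 to 14.2 CPM) and high libraries (23.8 to 44.5 CPM), so that the genotypes overlapped over nearly their whole range. Ascl3 (chr7:109727465-109731726, minus strand), a basic helix-loop-helix factor of ionocytes and some gland cells, had 25.9, 20.8 and 12.2 CPM in wild type, 18.4, 14.1, 19.9 and 22.6 CPM in heterozygous and 19.8, 20.9, 18.2 and 19.7 CPM in homozygous libraries. The 4 homozygous libraries sat close together, inside the range of wild type. Cftr (chr6:18170687-18322768, plus strand), the chloride channel, had 17.2, 16.0 and 15.7 CPM in wild type, 10.1, 14.4, 17.4 and 18.8 CPM in heterozygous and 19.6, 15.9, 13.1 and 7.66 CPM in homozygous libraries. Here wild type was the tight group, and both knockout groups spread to either side of it.

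**Figure D2:**
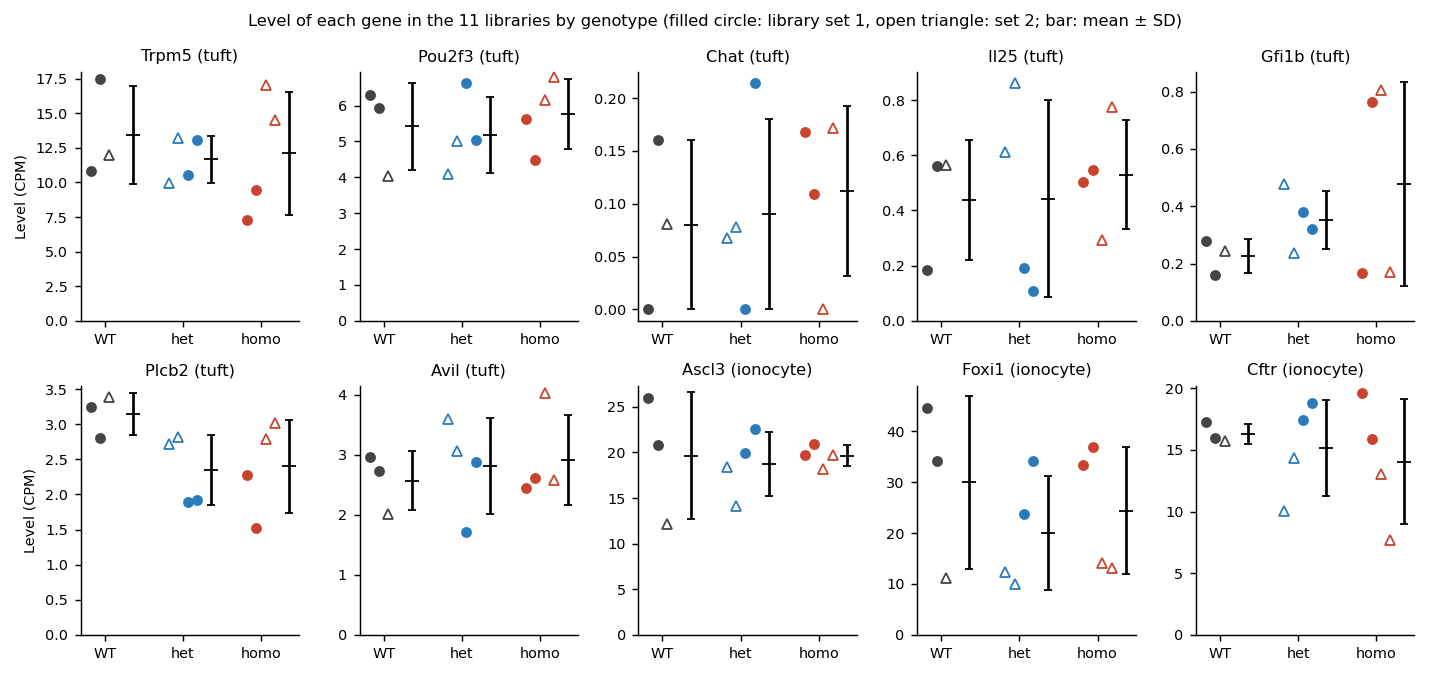
Level of each gene in CPM by genotype, with a point for each of the 3 wild-type (WT), 4 heterozygous (het) and 4 homozygous (homo) libraries and the mean ± SD beside them; filled circles are libraries of set 1 and open triangles those of set 2. The genotypes overlap in every panel, and in the Foxi1 panel the set 2 libraries (9.96 to 14.2 CPM) lie under the set 1 libraries (23.8 to 44.5 CPM) within each genotype.

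The fold changes of the ionocyte members were bounded to different degrees. Ascl3 was the tightest of the 7 tested genes in homozygous versus wild-type libraries, with a log2 fold change of 0.0020 (SE 0.24, interval -0.52 to 0.52) whose sign differed between scalings (-0.0087 with RLE scaling). Foxi1 was the loosest, with -0.30 (SE 0.54, interval -1.48 to 0.87) in homozygous and -0.59 (SE 0.54, interval -1.76 to 0.59) in heterozygous versus wild-type libraries. Cftr had -0.21 (SE 0.29, interval -0.85 to 0.42) and -0.11 (SE 0.29, interval -0.75 to 0.53). With the replicate number as a block in a fit of homozygous and wild-type libraries alone, Foxi1 had -0.026 (SE 0.17), Cftr -0.049 (SE 0.17) and Ascl3 0.037 (SE 0.20). In the same fit Trpm5 had -0.31 (SE 0.27). Homozygous replicate 4 has no wild-type partner, so that the block removes it from these estimates and 3 libraries of each genotype remain. With that library left out and no block, Cftr had -0.011. The value of Foxi1 without the block rested on single wild-type libraries. In heterozygous versus wild type the value was -0.98 when replicate 3 of wild type was left out and -0.19 when replicate 1 was, and in homozygous versus wild type the same omissions gave -0.69 and 0.098. Within set 1 the mean level of Foxi1 was 39.4 CPM in wild-type, 29.0 in heterozygous and 35.1 in homozygous libraries (2 each). Within set 2 it was 11.2 CPM in the single wild-type library and 11.1 and 13.6 CPM in the heterozygous and homozygous pairs.

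Over the 3 comparisons without a block, 0 members passed edgeR's quasi-likelihood test after adjustment over all genes tested, and 0 had an unadjusted p-value under 0.05. The threshold on the adjusted p-value was passed by 0 of the 16574 genes tested (0%) in each comparison by this test. Before adjustment the share of all tested genes with a p-value under 0.05 was 3.02% in homozygous versus wild-type libraries, 2.24% in heterozygous versus wild-type and 0.561% in homozygous versus heterozygous libraries. The unadjusted p-values of the members ran from 0.208 to 0.993, from 0.171 to 0.798 and from 0.506 to 0.898 in these edgeR comparisons, which share libraries. In homozygous versus wild type, where the replicate numbers were taken as pairs, the block on these 2 genotypes gave 39 of 16163 genes past the adjusted threshold (0.241%) and 6.31% with an unadjusted p-value under 0.05 by edgeR. Of the 7 tested members 0 were past either, with unadjusted p-values of 0.088 (Plcb2, -0.55, SE 0.28) to 0.996. Of the 39 genes 37 were higher in homozygous libraries, and 6 were skeletal muscle markers. With the 3 genotypes tested together and no block the members' p-values ran from 0.314 (Plcb2) to 0.943 (Ascl3), and 1.45% of all genes had an unadjusted p-value under 0.05 by edgeR. Of the 30 pairs of genotypes over the 10 members, 0 were without overlap, whereas 4.99%, 2.51% and 0.597% of the tested genes had no overlap in the 3 comparisons. The median log2 fold change of the 7 tested members was -0.15 in homozygous versus wild type (4 of 7 lower, beside 47.2% of all genes), -0.11 in heterozygous versus wild type (6 of 7 lower, beside 49.6%) and 0.055 in homozygous versus heterozygous libraries (1 of 7 lower, beside 48.2%). The medians of all tested genes were 0.015, 0.0018 and 0.0062. The intervals given for each gene bound the changes that these libraries allow, and the members were not shown to be equal between genotypes.

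**Figure D3:**
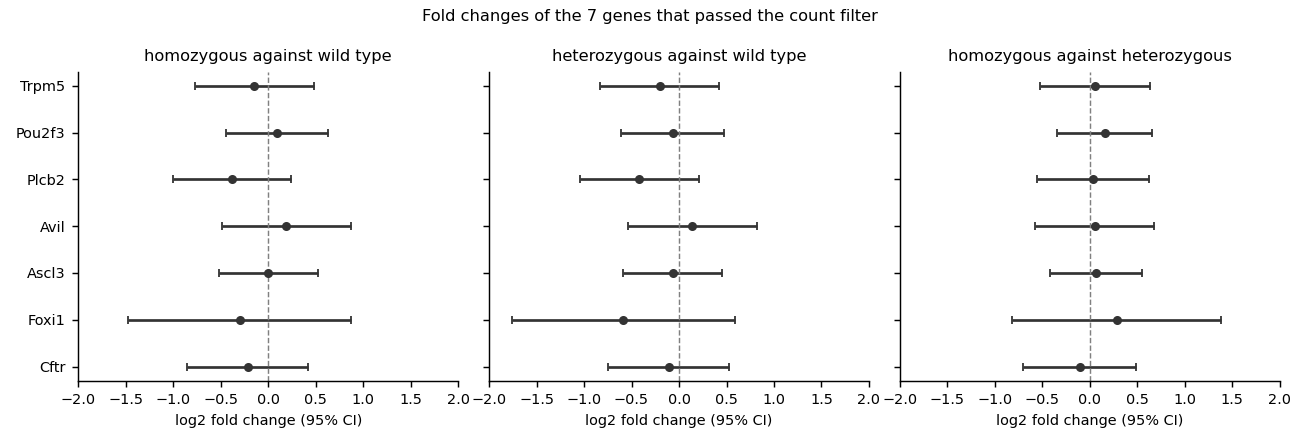
Log2 fold change of the 7 tested genes in the 3 comparisons, with 95% confidence intervals from the edgeR fit and a dashed line at 0. Every interval crosses 0, and Foxi1 has the widest, from -1.48 to 0.87 in homozygous versus wild type.

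The partners of the tuft cell genes were examined as lists of pathway genes, and the counts and medians below leave the 10 members out. After adjustment over all genes the edgeR p-value of every gene in these lists was at least 0.996 without a block, so that 0 passed, and the p-values printed below are unadjusted and from that fit. In the taste transduction list, 5 of 15 genes were tested, 0 had an unadjusted p-value under 0.05 in any comparison, and the median log2 fold change was 0.082 in homozygous (2 of 5 lower) and 0.045 in heterozygous versus wild-type libraries (2 of 5 lower). With the block on homozygous and wild-type libraries the median was -0.082, with 5 of 5 lower. Its gene with the highest CPM, not scaled to length, was Gng13, a G protein gamma subunit that olfactory sensory neurons also use, with a mean of 101.7 CPM. Gnat3, the taste G protein alpha subunit gustducin, had 0 to 2 counts per library, and the succinate receptor gene Sucnr1 had 0 or 1. Among the taste receptor genes, Tas1r1 and Tas1r3, which pair as the umami receptor, had means of 8.38 and 5.19 CPM, whereas 4 bitter receptor genes had 0 counts in all libraries. The structure and kinase list (10 of 12 tested) and the eicosanoid synthesis list (7 of 8 tested) had medians of 0.16 and 0.31 in homozygous versus wild type, and of 0.14 and 0.17 with the block. The former had 0 genes and the latter 1 gene with an unadjusted p-value under 0.05, which was Ptgs2, an inducible prostaglandin synthase. With the block, Bmx of the structure list, a kinase of the Tec family, also had one (0.54, SE 0.21, unadjusted p = 0.0322, edgeR). Ptgs2 had 5.28, 6.57 and 5.65 CPM in wild type, 29.2, 16.0, 44.6 and 7.49 CPM in heterozygous and 46.2, 34.6, 4.33 and 6.54 CPM in homozygous libraries. All heterozygous libraries lay above wild type, while the homozygous libraries fell on both sides. Groups without overlap were found for 2.51% of all tested genes in heterozygous versus wild type. Ptgs2 had log2 fold changes of 2.06 (SE 0.80, unadjusted p = 0.0250, edgeR) in heterozygous and 1.97 (SE 0.80, unadjusted p = 0.0305) in homozygous versus wild-type libraries, where the block gave 1.84 (SE 0.57, unadjusted p = 0.0120). The 6 leukocyte markers summed to 253 to 324 CPM in wild-type, 225 to 434 in heterozygous and 217 to 385 in homozygous libraries, and 6 of 6 were higher in heterozygous (median 0.22) and 4 of 6 in homozygous versus wild-type libraries (median 0.27). Among them Cd68, a macrophage lysosomal protein, had 0.57 in heterozygous versus wild type (unadjusted p = 0.0202, edgeR). In homozygous versus wild type Cd68 had 0.46 (unadjusted p = 0.0509, edgeR), and 0.49 with the block (unadjusted p = 0.0361, edgeR). S100a9, a neutrophil protein, had 0.93 in homozygous versus wild type (unadjusted p = 0.0301, and 0.0156 with the block, edgeR). The part of leukocytes in the eicosanoid list was not tested. In the factor list (3 of 5 tested) the ETS factor Spib had the lowest p-value, with 1.36 (SE 0.60, unadjusted p = 0.0424, edgeR) in heterozygous versus wild type on 5 to 34 counts per library, and with the block Sox9 had 0.35 (SE 0.15, unadjusted p = 0.0434, edgeR) in homozygous versus wild type. Of the genes of these lists 0 passed after adjustment with the block.

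In the type 2 cytokine list, which holds the receptor genes of Il25, 6 of 7 genes were tested. Il33, an alarmin of epithelial cells, had 102.02, 90.8 and 52.3 CPM in wild type, 21.9, 53.9, 49.4 and 81.4 CPM in heterozygous and 43.5, 40.2, 46.1 and 39.3 CPM in homozygous libraries. The 4 homozygous values were all under the lowest wild-type value. Homozygous versus wild type gave -0.95 on the log2 scale for Il33 (SE 0.34, unadjusted p = 0.0169, edgeR; with the block on these 2 genotypes -0.88, SE 0.20, adjusted p = 0.321), and groups without overlap were found for 4.99% of all tested genes in this comparison. Il17rb, the receptor gene for interleukin 25, had a mean of 2.85 CPM and a log2 fold change of 0.035 in the same comparison (unadjusted p = 0.927). The only other gene of this list with an unadjusted p-value under 0.05 in homozygous versus wild type was Il4ra, the shared receptor chain for interleukins 4 and 13 (0.40, unadjusted p = 0.0488 in the edgeR fit, and 0.34, unadjusted p = 0.0342, with the block).

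Of these lists, the cholinergic one had the largest fold changes, on uneven libraries. In heterozygous versus wild type they were 3.76 on the log2 scale for Slc18a3 (SE 1.74, unadjusted p = 0.0521, edgeR, on 2 counts over the wild-type libraries), the vesicular acetylcholine transporter, and 3.14 for Slc5a7 (SE 1.39, unadjusted p = 0.0434), the choline transporter. Ache, acetylcholinesterase, which muscle and neurons also express, had 20.5, 14.6 and 41.6 CPM in wild type, 170.1, 66.9, 57.3 and 35.7 CPM in heterozygous and 59.1, 46.8, 38.4 and 83.3 CPM in homozygous libraries. Ache had log2 fold changes of 1.69 (SE 0.52, unadjusted p = 0.00715, edgeR) in heterozygous and 1.15 (SE 0.51, unadjusted p = 0.0444) in homozygous versus wild-type libraries, where the block gave 0.99 (SE 0.33, unadjusted p = 0.0156). Slc18a3 had 14 and 23 counts in heterozygous replicates 2 and 4 and 12 and 13 in homozygous replicates 2 and 4, and 0 or 1 in the other 7 libraries, so that its counts did not follow those of Chat, which were 0 to 2 throughout. Slc5a7 had 30 and 23 counts in the same 2 heterozygous libraries and 20 in homozygous replicate 2, and 0 to 6 elsewhere. The skeletal muscle markers summed to 526 and 1562 CPM in heterozygous replicates 2 and 4, and to 391 and 19.5 CPM in homozygous replicates 2 and 4. They also summed to 113 and 733 CPM in homozygous replicates 1 and 3, where Slc18a3 had 0 counts and Slc5a7 had 5 and 1. The 6 sensory and motor neuron markers summed to 77.5 to 87.3 CPM in wild-type, 85.9 to 116 in heterozygous and 85.4 to 130 in homozygous libraries, and 3 of them were tested, of which 2 were higher in each knockout genotype (median log2 fold change 0.56 in heterozygous and 0.55 in homozygous versus wild type). Prph, an intermediate filament of peripheral neurons, was the median gene in both (unadjusted p = 0.0201 and 0.0225, edgeR, and 0.31, unadjusted p = 0.0242, with the block), while the motor neuron factor Mnx1 had 0 to 2 counts per library. The part of muscle or of nerve in these counts was not tested.

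In the ionocyte list of 16 genes beside the members, all of which were tested, 0 had an unadjusted p-value under 0.05 in any comparison, nor with the block. The median was -0.12 in homozygous (10 genes lower) and -0.051 in heterozygous libraries (9 lower) relative to wild type, and 0.025 between the knockout genotypes (7 lower). With the block on homozygous and wild-type libraries it was -0.036 (8 lower). The V-ATPase subunit gene Atp6v1b1, a marker of acid-secreting cells, held a mean of 174 CPM with 175 ± 34.7 (SD, n = 3), 173 ± 24.1 (SD, n = 4) and 175 ± 23.8 (SD, n = 4) in wild-type, heterozygous and homozygous libraries. Slc12a2, a chloride importer that gland cells also use, had the highest CPM of the list at 281. The lowest p-values were those of Stap1 in both comparisons with wild type (-0.40, unadjusted p = 0.138, and -0.45, unadjusted p = 0.104, edgeR) and Dmrt2 in homozygous versus heterozygous libraries (0.28, unadjusted p = 0.235).

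Whereas genotype left the ionocyte genes overlapping, the library sets drawn from all tested genes outside the members separated them. Foxi1 had 23.8 to 44.5 CPM in set 1 and 9.96 to 14.2 CPM in set 2, and the set means differed 2.84-fold. Cftr had 15.9 to 19.6 CPM in set 1 and 7.66 to 15.7 CPM in set 2. Ascl3 had 19.8 to 25.9 CPM in set 1 and 12.2 to 19.7 CPM in set 2, a gap as narrow as the distance between 19.77 and 19.71. All 3 ionocyte members were therefore higher in every library of set 1 than in any of set 2, which held for 10.9% of all tested genes, while a further 16.0% were lower without overlap. Of the 4 tested tuft cell members, 0 separated in this way. The difference of set means on the log2 CPM scale was 1.48 for Foxi1 (rank 96 of 16574 from the top), 0.56 for Cftr and 0.40 for Ascl3. It was 0.13 for Pou2f3, -0.23 for Avil, -0.24 for Trpm5 and -0.38 for Plcb2, beside a median of 0.0050 over all tested genes. As the sets were drawn from the expression data, these differences are a description with no test. The split by all tested genes was added after the data were seen. A planned split by the 500 most variable genes divided the libraries otherwise, and there all 3 ionocyte members overlapped. In that split Foxi1 had 11.2 to 44.5 CPM in 1 group of libraries and 9.96 to 36.9 CPM in the other.

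**Figure D4:**
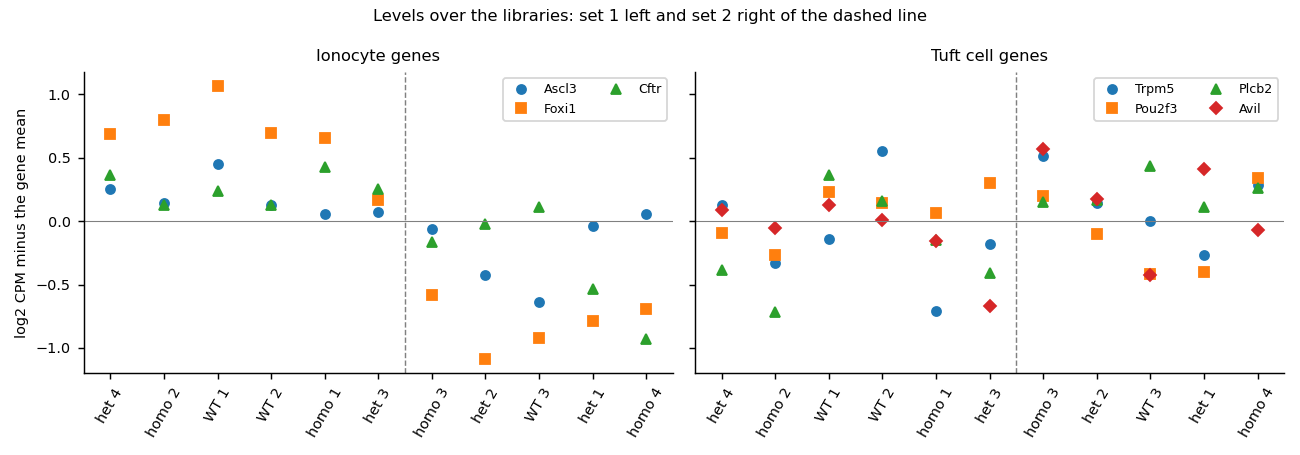
Log2 CPM of the tested genes minus the mean of each gene, with ionocyte genes on the left and tuft cell genes on the right; the horizontal axis lists the libraries, with the 6 of set 1 left and the 5 of set 2 right of the dashed line. The ionocyte genes step down from set 1 to set 2, with Foxi1 the furthest (set means 1.48 apart), while the tuft cell genes scatter around 0 in both.

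The spread of Foxi1 was wide for its abundance. The SD of its log2 CPM over the 11 libraries was 0.81, larger than in 98.8% of the 500 genes of most similar abundance (median 0.27), and its highest library was 4.46-fold above its lowest. The SDs of Trpm5 (0.37), Cftr (0.40) and Ascl3 (0.30) stood at percentiles 62.0, 69.0 and 54.2 of their own 500 neighbours. Those of Pou2f3 (0.26), Avil (0.33) and Plcb2 (0.34) stood at or below percentile 19.4. Pou2f3, Avil and Plcb2 thus varied less between libraries than most genes of their level.

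Other genes of the ionocyte and tuft cell lists also lay apart between the sets. Of the 19 ionocyte genes, 5 were higher in set 1 without overlap (beside 10.9% of all tested genes) and 0 lower, which were the 3 members already described, Slc12a2 (316 to 376 versus 138 to 272 CPM) and P2ry14 (8.02 to 11.8 versus 5.09 to 7.89 CPM), a receptor for sugar nucleotides. Of the 16 genes outside the members, only Slc12a2 and P2ry14 separated, a share close to the 10.9% of all tested genes. The V-ATPase gene Atp6v1b1 did not take part, with a ratio of set means of 0.994. Of the 7 tested taste transduction genes, Trpm5 and Plcb2 included, 3 were lower in set 1 without overlap, namely Gnb3 (0.379 to 0.925 versus 1.17 to 2.32 CPM), Tas1r1 (5.67 to 7.97 versus 8.79 to 11.6 CPM) and Tas1r3 (3.60 to 4.39 versus 6.02 to 6.97 CPM). The eicosanoid genes Ltc4s and Ptgs1 (2 of 7 tested) and the cytokine receptor genes Il17rb and Il17ra (2 of 6 tested) were lower in set 1 in the same way, beside 16.0% of all tested genes. Genes higher in set 1 without overlap were Sox9 of the factor list (1 of 4 tested with Pou2f3, 70.6 to 105 versus 33.9 to 50.3 CPM) and Cd24a of the structure list (1 of 11 tested with Avil, 396 to 733 versus 155 to 349 CPM). The share of all tested genes in this direction was 10.9%, and 1 of 11 is not above it. The genes of the tuft cell lists were named here after their values were seen. Markers of other cell types moved with the sets as well. The median difference of set means on the log2 scale was 0.70 over the 7 gland markers, 0.56 over the 4 respiratory ciliated markers and -0.81 over the 3 tested megakaryocyte markers. Summed over each list, gland markers overlapped between sets (3882 to 6396 CPM in set 1 and 4206 to 5534 in set 2), as did ciliated markers (358 to 527 and 256 to 379 CPM), whereas megakaryocyte markers did not (43.3 to 50.4 and 64.4 to 102.0 CPM). Most of the gland sum was Bpifa1 (mean 4158 CPM, ratio of set means 0.848), while the ratio was 11.3 for Obp2a (0.948 to 1023 versus 0.161 to 151 CPM), 3.59 for Dmbt1, 1.91 for Sox10 and 1.65 for Aqp5. The part of these cell types in the ionocyte difference was not tested.

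Within set 1, the only set with 6 libraries, the levels of members were compared pairwise (21 pairs, log2 CPM). Ascl3 and Foxi1 had a Pearson r of 0.74 (exact permutation test, p = 0.0611, 0.428 after Benjamini-Hochberg adjustment) and a Spearman rho of 0.77 (exact p = 0.103, adjusted 0.719). Without the 2 libraries farthest from the median of Ascl3, r was 0.63. Foxi1 and Cftr had an r of -0.15 (exact permutation p = 0.819, adjusted 0.989), and Ascl3 and Cftr had -0.063 (exact permutation p = 0.964, adjusted 0.989). Avil and Foxi1 had the highest r of the 21 pairs, 0.91 (exact permutation p = 0.0472, adjusted 0.428; rho = 0.77, exact p = 0.103), which rested on 2 libraries, as r was 0.072 without those farthest from the median of Avil. Of the 21 pairs, 0 passed after adjustment, and the lowest adjusted p-value was 0.233 (exact permutation test; Avil and Ascl3, r = 0.64). Between members no r is given over both sets, since they form separate clusters.

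The sequences upstream of the 3 ionocyte genes are shown because these genes were all higher in set 1, though Cftr did not follow the other two within it. The 250 bases before the RefSeq transcript start (build GRCm38.p6) are written 5′ to 3′ on the strand of the gene, with CG dinucleotides in capitals. Of the 10 members, 8 had an entry, and Pou2f3 and Il25 had none.
Foxi1, chr11:34208090-34208339, minus strand: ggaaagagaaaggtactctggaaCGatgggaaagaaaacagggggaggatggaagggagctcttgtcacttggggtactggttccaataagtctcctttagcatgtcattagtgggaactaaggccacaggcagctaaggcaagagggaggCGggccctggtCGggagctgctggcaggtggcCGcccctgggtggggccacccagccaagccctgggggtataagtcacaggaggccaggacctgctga
Ascl3, chr7:109731733-109731982, minus strand: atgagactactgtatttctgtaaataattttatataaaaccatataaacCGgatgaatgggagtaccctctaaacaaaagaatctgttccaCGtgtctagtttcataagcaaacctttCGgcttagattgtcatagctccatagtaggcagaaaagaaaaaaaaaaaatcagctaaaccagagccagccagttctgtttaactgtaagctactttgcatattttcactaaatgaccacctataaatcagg
Cftr, chr6:18170437-18170686, plus strand: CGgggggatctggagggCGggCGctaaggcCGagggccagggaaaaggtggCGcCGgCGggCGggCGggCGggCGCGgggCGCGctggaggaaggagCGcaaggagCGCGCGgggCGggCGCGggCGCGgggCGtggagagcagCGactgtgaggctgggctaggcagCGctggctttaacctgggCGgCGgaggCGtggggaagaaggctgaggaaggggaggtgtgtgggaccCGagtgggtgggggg

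These windows differed widely in base composition. Cftr had 76.4% GC and 30 CG dinucleotides, above 97.0% of the 32851 windows in GC content. Foxi1 had 58.8% GC and 4 CG dinucleotides, and Ascl3 had 34.8% GC and 3, above 4.59% of the windows, whose median was 52.4%. Of the tuft cell genes, Trpm5 had 52.8% GC, Plcb2 62.0% and Avil 42.0%. The sequence TATAAA occurred 3 times on the strand of Ascl3 and once more as its reverse complement. It was present on either strand in 12.4% of all windows, and among the 8 members with a window in Ascl3 alone. The octamer ATGCAAAT, a sequence bound by POU factors, occurred on either strand in 1.60% of all windows and in 0 of the 8 members, though in those of Itpr3, Sucnr1, Tas2r108 and Tas2r126 of the transduction list and Atp6v1c2 of the ionocyte list. The forkhead sequence TGTTTAC occurred in 3.17% of all windows, in 0 of the 8 members and in Atp6v1b1 and P2ry14 of the ionocyte list. A match is a description of letters, and its absence here says nothing about the factor.

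The genes whose pattern over the 11 libraries was most like each group were sought among the other 16567 tested genes. Mdk (r = 0.91), E2f8 (0.91), Sfrp4 (0.90), Gstm1 (0.90) and Olfr434 (0.89) had the highest Pearson r to the mean log2 CPM of the 4 tested tuft cell members. Gphn (r = 0.99), AW209491 (0.99), Bpnt1 (0.98), 4931414P19Rik (0.98) and Pcyox1l (0.98) had the highest r to the mean of the 3 ionocyte members. For the ionocyte group the likeness lay in part in the set difference, as r fell to between 0.65 (Pcyox1l) and 0.91 (AW209491) after the means of the sets were removed. For the tuft cell group r was 0.86 to 0.95 after the same step. These are the highest of many values over 11 points that share their libraries, and they carry no p-value.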

How the data were processed

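RNA-seq of whole MOE was analysed for 3 wild-type, 4 heterozygous and 4 homozygous libraries, made per the labels from total RNA by polyA selection with a directional kit. The authors trimmed the reads (Trimmomatic, version 0.36), aligned them to mm10 (HISAT2, version 2.1.0) and deposited raw counts per gene (featureCounts, Subread version 1.6.2). The annotation and the strand setting are not given in the sources used here. A normalised table of the authors was not used. Of the columns, 0 belonged to no sample, and 27 symbols stood as spreadsheet dates.

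The counts were tested with edgeR (version 4.0.16, R version 4.3.3) by quasi-likelihood F-tests on 1 fit of the 3 genotypes over all 11 libraries, with TMM scaling and the filterByExpr filter, which kept 16574 of 24421 entries. Benjamini-Hochberg adjustment ran over every tested gene (threshold 0.05). Levels are CPM on TMM-scaled library sizes, and log2 CPM used a prior count of 2. Depth was 9239866 to 14632525 counts per library. Single values were compared with two-sided exact permutation tests. Loci and merged exon lengths came from GENCODE M21 (mm10), which gave a length for 15975 of the tested genes, and upstream sequences from RefSeq (GRCm38.p6). Libraries of the same replicate number deviated together in homozygous and wild-type mice (3 of 3 pairs, r = 0.33 to 0.42) and in 0 of the 7 pairs with heterozygotes, so that the numbers were taken as pairs for the first comparison alone. The pairing comes from the data, not from the labels, and in both genotypes replicates 1 and 2 were in library set 1 and replicate 3 in set 2. This shared division could give all 3 correlations, so that they do not establish that the numbers are pairs. The script was tested on simulated data.

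The members and lists were chosen with earlier results of these data known. Named were all 10 members, the most abundant gene of each companion list, its gene with the lowest unadjusted p-value in each comparison, and the 5 genes most like each group. Alternatives were RLE scaling, no filter, DESeq2 (version 1.42.0), a replicate block, single libraries left out, pairs of genotypes alone, and the 500-gene library set or the muscle level as a covariate. Leaving out Rn45s, the all-gene library set and the replicate block on 2 genotypes alone were added after the data were seen.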

Additional observations from a re-analysis of the deposited data

Results flagged for a closer look

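Single libraries stood far from the other 3 of their genotype (Dixon's ratio above the 95% critical value of 0.829 for 4 libraries) in 3 of 61 groups checked over 31 genes, and chance gives about 1 in 20. That rate holds only for the first of the 3, since the ratio is 1 for any gene with 1 count in a single library and 0 in the others. Avil had 4.03 CPM (55 counts) in homozygous replicate 3, with the other homozygous libraries between 2.44 and 2.62 CPM, a gap of 0.888 of the range. Gnat3 had 0.109 CPM (1 count) in homozygous replicate 2 and 0 in the other homozygous libraries. Sucnr1 had 0.0948 CPM (1 count) in heterozygous replicate 3 and 0 in the other heterozygous libraries.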

How the results depend on the processing

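Each fold change of the 7 tested members in the 3 comparisons was recomputed under 20 alternatives, and those of homozygous versus wild type also with a replicate block on these 2 genotypes alone, which was chosen after the data were seen. Of these 427 values, 388 kept their sign and 39 changed it, 0 of the latter with an unadjusted p-value under 0.05. The only value of the 427 with an unadjusted p-value under 0.05 was that of Plcb2 in heterozygous versus wild type with the library set of all genes as a covariate, and 0 passed after adjustment. Ascl3 in homozygous versus wild type changed sign with RLE scaling (-0.0087), without a filter (-0.018), in DESeq2 (-0.0086), with the replicate block (-0.0099), with only the 2 genotypes compared (-0.017), with the 500-gene set as a covariate (-0.00037) and without Rn45s (-0.012). Ascl3 in heterozygous versus wild type became 0.029 with the all-gene set as a covariate, and Pou2f3 became 0.0048 with the muscle level as a covariate.

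With 1 library left out, the log2 fold changes of homozygous versus wild type ranged from -0.25 to 0.25 for Ascl3, from -0.012 to 0.30 for Avil, from -0.42 (without homozygous replicate 1) to -0.011 (without homozygous replicate 4) for Cftr, from -0.50 to -0.24 for Plcb2, from -0.69 to 0.098 for Foxi1, from -0.081 to 0.21 for Pou2f3 and from -0.36 to 0.088 for Trpm5. In heterozygous versus wild type they ranged from -0.32 to 0.19 for Ascl3, from -0.0083 to 0.31 for Avil, from -0.22 to 0.048 for Cftr, from -0.98 to -0.19 for Foxi1, from -0.52 to -0.33 for Plcb2, from -0.24 to 0.055 for Pou2f3 and from -0.33 to 0.033 for Trpm5. In homozygous versus heterozygous they ranged from -0.047 to 0.15 for Ascl3, from -0.15 to 0.20 for Avil, from -0.31 to 0.096 for Cftr, from 0.013 to 0.64 for Foxi1, from 0.056 to 0.30 for Pou2f3, from -0.089 to 0.19 for Plcb2 and from -0.16 to 0.23 for Trpm5. All 140 recomputed levels stayed within 1 SD. For the levels with 1 library left out this was fixed in advance, since dropping 1 value moves a mean by less than the SD. Only the levels with RLE scaling could have moved further.

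DESeq2 called 8, 3 and 2 genes in homozygous versus wild type, heterozygous versus wild type and homozygous versus heterozygous, of which 0 were members, where edgeR called 0 in each (500, 372 and 93 before adjustment, by p under 0.05). DESeq2 had 633, 491 and 120 genes before adjustment. The cause was not tested. With the replicate block edgeR called 0 genes, with 286, 239 and 43 under 0.05 before adjustment. The replicate block on homozygous and wild-type libraries alone called 39 genes in that comparison (1020 before adjustment) and 0 members, and turned Pou2f3 to -0.0014. It changed no call of a member. Numbers were not taken as pairs in the comparisons with heterozygotes, where all 7 correlations were negative (-0.58 to -0.19). Chat, Il25 and Gfi1b, with 0 to 11 counts per library, did not pass the filter, and their p-values rest on few counts.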
